A study of Bos taurus with 3 samples.

Results

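RBP3, IMPG2, RDH10 and ELOVL4 serve the space around photoreceptors and the supply of retinoids and lipids to their outer segments. All 4 carried listed Argonaute sites in bovine retina, and they were chosen with earlier results of these data known. Every listed site whose gene name, in capitals, equals one of these names was taken, which gave 10 of 402 sites and 4 of 280 named genes. The data come from Argonaute HITS-CLIP, in which RNA is linked to protein by ultraviolet light in clusters of cells from dissected retina of Bos taurus (strain given as mixed) and the RNA that purifies with Argonaute is sequenced. There was 1 group of 3 replicates, with no treatment, no control immunoprecipitation and no input RNA, and the labels do not tell whether separate animals were used. The SD over replicates may thus be technical, and mRNA levels were not measured, so fewer cells of a type and less RNA per cell cannot be told apart.

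Photoreceptors lie next to the pigment epithelium across a narrow space filled by the interphotoreceptor matrix. RBP3 is the soluble retinoid-binding protein of that matrix, secreted by photoreceptors, and it carries retinoids between photoreceptors, pigment epithelium and Müller glia. IMPG2 is a membrane-bound proteoglycan that anchors the matrix around outer segments. RDH10 oxidises all-trans-retinol to retinal, and ELOVL4 elongates the very long chain fatty acids that photoreceptor discs hold. Argonaute carries a miRNA, whose seed pairs with the target transcript, most often in the 3' UTR. The tables name no miRNA for these sites.

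The 10 sites were split evenly between coding sequence and 3' UTR, with 5 in each. Over all 402 sites the coding share was 20.1% (81 sites) and the 3' UTR share 55.5% (223 sites). The rest of the 402 were in neither class, so these shares and the even split do not have the same base. All 5 coding sites were in RBP3, with 3, and IMPG2, with 2, while RDH10 and ELOVL4 carried a single 3' UTR site each. All 10, from only 4 genes, were in the minus-strand table, which holds 213 of the 402 sites (53.0%). A lower coordinate is thus nearer the 3' end of the transcript, and the sites of a gene are numbered here from the 5' side. A tag is a sequenced fragment assigned to a peak, and the values below are tags per peak as deposited, unscaled. The 402 sites together held 6421 tags in replicate 1, 5779 in replicate 2 and 4114 in replicate 3, which are sums over listed sites and not library depths.

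**Figure D1:**
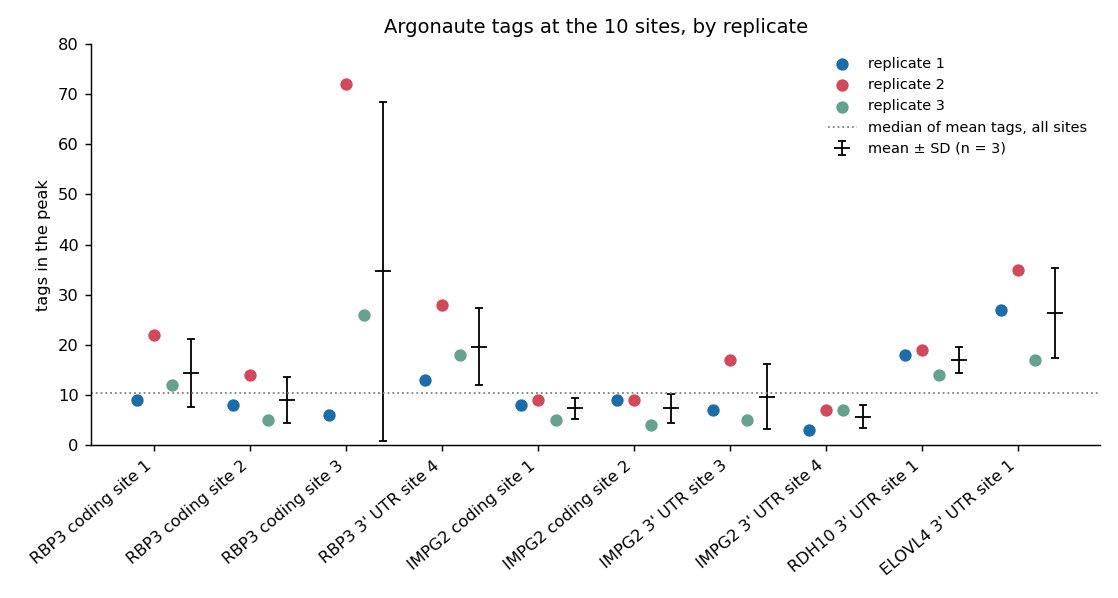
Tags in the peak at each of the 10 sites (horizontal axis), with 1 point per replicate, the mean ± SD of the 3 replicates beside them, and a dotted line at the median of the mean tags of all 402 sites. The RBP3 coding site 3 runs from 6 to 72 tags, while the RDH10 site stays between 14 and 19.

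RBP3, the retinoid carrier, had 4 sites on chromosome 28 and the most tags of the 4 genes. Summed over its sites it held 36, 136 and 61 tags in replicates 1, 2 and 3, or 77.7 ± 52.0 (SD, n = 3), the 7th highest of 280 named genes. Replicate 2 was the highest and replicate 1 the lowest, and without replicate 2 the mean was 48.5 and the rank 14th. Of these tags 63.9%, 79.4% and 70.5% lay in coding sequence in the same order, a mean of 71.3% ± 7.79. Coding tags, from 3 sites, thus exceeded 3' UTR tags, from 1 site, in every replicate. In replicate 3 this rested on the coding site 3, since the coding sites 1 and 2 had 12 and 5 tags against 18 in the 3' UTR.

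The RBP3 coding site 3 (chromosome 28, 42010451 to 42010829) ranked 2nd of 81 coding sites, at 34.7 ± 33.8 tags. Its 6, 72 and 26 tags carry exact Poisson 95% intervals of 2.20 to 13.1, 56.3 to 90.7 and 17 to 38.1, which cover counting error only. None of the 3 intervals overlap, and without replicate 2 the mean was 16. The coding site 1 (42012292 to 42012452) had 9, 22 and 12 tags, or 14.3 ± 6.81, and ranked 9th of the coding sites. The coding site 2 (42011690 to 42011868) had 8, 14 and 5 tags, or 9 ± 4.58, which is also the median of the 76 coding sites in other genes. The 3' UTR site 4 (42003752 to 42003904) had 13, 28 and 18 tags, or 19.7 ± 7.64, and ranked 35th of 223 3' UTR sites. In all 4 sites replicate 2 was the highest, and the order of replicates 1 and 3 differed between sites.

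IMPG2, the matrix proteoglycan, also had 4 sites, on chromosome 1, with fewer tags in sum. That sum was 27, 42 and 21 tags, or 30 ± 10.8, the 35th highest of the named genes. The coding site 1 (46837888 to 46837950) had 8, 9 and 5 tags and the coding site 2 (46835898 to 46835985) had 9, 9 and 4, so both came to a mean of 7.33, with SDs of 2.08 and 2.89. The 3' UTR site 3 (46818669 to 46818835) had 7, 17 and 5 tags, or 9.67 ± 6.43, with a mean of 6 without replicate 2. The site 4 (46817829 to 46817899) had 3, 7 and 7, or 5.67 ± 2.31. All 4 means lay below 10.3 tags, the median of all 402 sites. Coding sequence held 63.0%, 42.9% and 42.9% of the IMPG2 tags, or 49.6% ± 11.6. Within each replicate the coding share was higher in RBP3, but in replicate 1 the values were nearly equal, at 63.9% against 63.0% in IMPG2. The shares of the 2 genes do not overlap over the replicates, and the difference was not tested. RBP3 had 3 coding sites and 1 3' UTR site while IMPG2 had 2 of each, so the shares also depend on the number of listed sites.

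**Figure D2:**
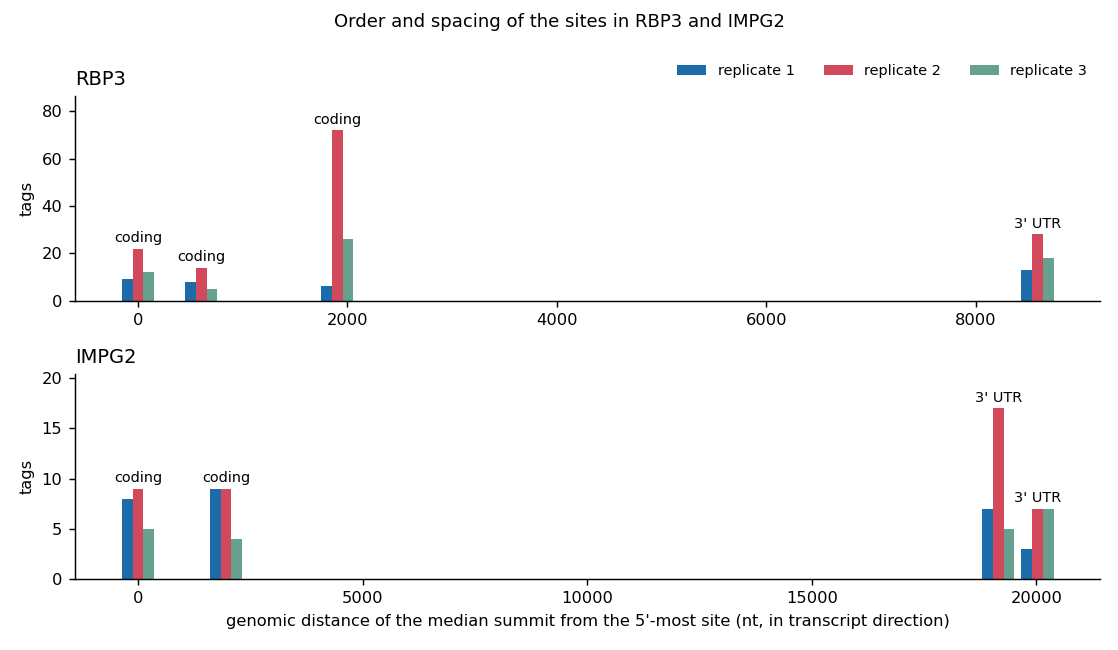
Tags per replicate (vertical axis, bars from 0) at the sites of RBP3 and IMPG2, placed by the genomic distance of their median summit from the 5'-most site, in nt and in the direction of the transcript. The coding sites lie together on the left, and the 3' UTR sites follow after 6688 nt in RBP3 and 17188 nt in IMPG2.

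The spacing of the sites is given as genomic distance between median summits, introns included. In RBP3 the coding sites 1 and 2 lay 604 nt apart and the coding sites 2 and 3 lay 1298 nt apart, and the 3' UTR site followed after a further 6688 nt. In IMPG2 the coding sites were 1960 nt apart, the next gap was 17188 nt, and the 3' UTR sites were 879 nt apart. Of the 280 named genes, 16 had sites in both coding sequence and 3' UTR, 10 had 4 or more sites and 5 had 3 or more coding sites. No other listed site lay within 100 kb of any of the 4 genes. The RBP3 protein is made of homologous repeats, and the treatment of tags that align to more than 1 place is not stated, so the assignment of tags between its coding sites is uncertain.

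RDH10 and ELOVL4, the enzymes of retinoid and lipid supply, each had a 3' UTR site that stood above the median of 11.2 tags of the 218 3' UTR sites in other genes. ELOVL4 (chromosome 9, 20036229 to 20036512) had 27, 35 and 17 tags, or 26.3 ± 9.02, and ranked 19th of 223 3' UTR sites. RDH10 (an unplaced scaffold of the authors' build, 1926958 to 1927132) had 18, 19 and 14 tags, or 17 ± 2.65, and ranked 50th. Its replicates differed the least of the 10 sites, with a highest value 1.36 times the lowest. The ELOVL4 site held more tags than the RDH10 site within each of the 3 replicates, a difference that was not tested, while their ranges over replicates overlapped.

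**Figure D3:**
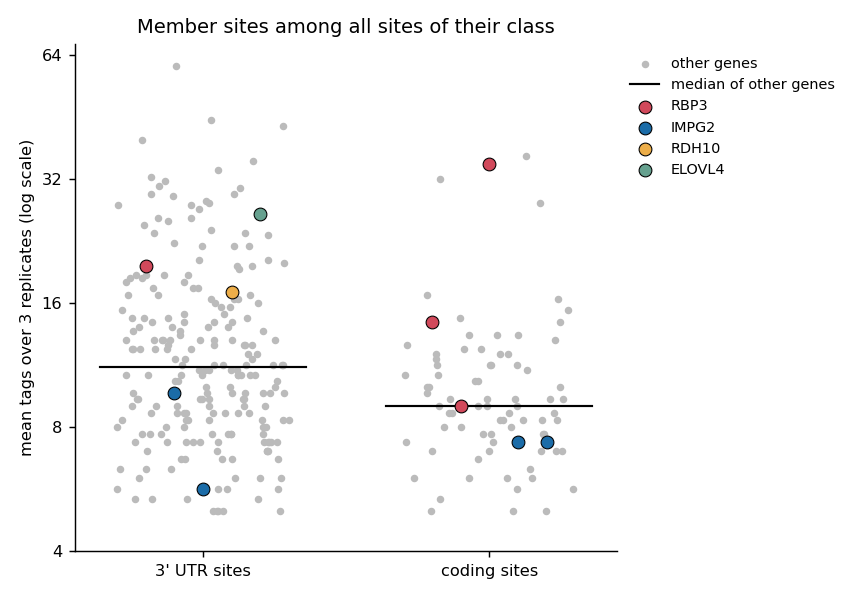
Mean tags over the 3 replicates (vertical axis, log scale) of the 3' UTR sites and coding sites of all genes, with the 10 sites of the 4 genes in colour and the median of the other genes as a line. The ELOVL4, RBP3 and RDH10 3' UTR sites lie above the line and the IMPG2 sites lie below it, and a single RBP3 site stands near the top of the coding class.

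Ordered by mean tags, the sites ran from the RBP3 coding site 3 through ELOVL4 (26.3), the RBP3 3' UTR site (19.7), RDH10 (17) and the RBP3 coding site 1 (14.3) to the IMPG2 3' UTR site 3 (9.67), the RBP3 coding site 2 (9), the IMPG2 coding sites (7.33 each) and the IMPG2 3' UTR site 4 (5.67). Each neighbouring pair in this order overlapped in its range over replicates. The order depends on replicate 2, since without it the RBP3 coding site 3 came to 16 tags, equal to RDH10 and below ELOVL4 at 22, and the IMPG2 3' UTR site 3 came to 6, below the 6.5 of the RBP3 coding site 2. The first 5 of these sites were above the median of all sites and the other 5 were below it. Their median was 12 tags, against 10.3 over all sites.

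Whether the replicates of a site differed by more than counting error was tested with an exact multinomial test over all 402 sites, with the replicates scaled by their median ratio and Benjamini-Hochberg adjustment. Of the 10 sites 1 passed the exact test at the threshold of 0.05, the RBP3 coding site 3 (adjusted p = 1.44e-14), against 4.98% of all 402 sites. Unadjusted p was under 0.05 at 4 of the 10, against 14.7% of all sites, these being that site, the RBP3 coding site 1, the RBP3 3' UTR site and the IMPG2 3' UTR site 3, whose adjusted p in the exact test were 0.193, 0.162 and 0.269 for the last 3. The other 6 had adjusted p from 0.538 to 0.991 in the same exact test. With tags summed per gene, an exact multinomial test over the 280 named genes chosen after the data were seen, RBP3 passed (adjusted p = 7.02e-15), against 5.36% of genes. IMPG2, ELOVL4 and RDH10 did not (exact test, adjusted p = 0.399, 0.757 and 1). The RBP3 call held without its coding site 3, on sums of 30, 64 and 35 tags (exact multinomial test, adjusted p = 0.00611). It depended on replicate 1, since without that replicate the adjusted p was 0.101 for the gene and 0.0580 for the coding site 3 (exact tests).

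**Figure D4:**
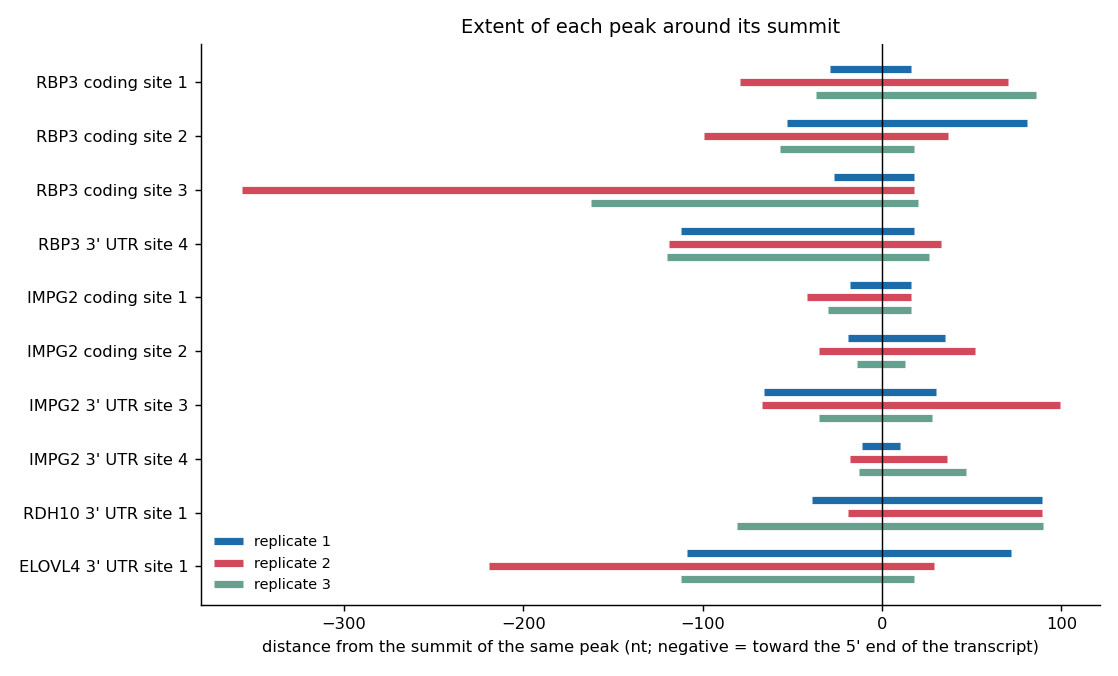
Extent of the peak in each replicate (bars) around its own summit (0), in nt, with the 5' side of the transcript to the left, for the 10 sites. At the RBP3 coding site 3 the bars end at nearly the same place on the right and reach 27, 357 and 162 nt to the left in replicates 1, 2 and 3.

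The 3 replicates placed the RBP3 coding site 3 at nearly the same bases on its 3' side and differed on its 5' side. Its summits lay within 2 nt of each other. The peaks reached 18, 18 and 20 nt from the summit toward the 3' end of the transcript, and 27, 357 and 162 nt toward the 5' end. Peak length was 46, 376 and 183 nt, a ratio of 8.17 between the longest and the shortest, and tags differed by a ratio of 12. No other of the 402 sites had as high a ratio of lengths or of tags. Per 100 nt of peak it held 13, 19.1 and 14.2 tags, a much smaller range than that of the tags.

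Fold enrichment over the authors' background, per the file headers, was a whole multiple of a fixed step in each replicate and strand table, within a tolerance of 0.02 in all 1206 peaks. That multiple never exceeded the tags of its peak, and it is read here as the number of tags stacked at the summit, which the headers do not state. At the RBP3 coding site 3 it was 4, 13 and 11, so replicates 2 and 3 were nearer each other at the summit than in tags per peak. With the multiple in place of tags, the exact multinomial test gave an unadjusted p of 0.0220 and an adjusted p of 1 for this site. With expected shares in proportion to peak length the exact test gave p = 0.498 and an adjusted p of 1. Peak length and tags moved together at this site, and which of them follows the other was not tested.

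The summit multiple gives another order of the sites. The RBP3 3' UTR site led with 10, 16 and 6 (10.7 ± 5.03), followed by RDH10 with 11, 13 and 6 (10 ± 3.61) and the RBP3 coding site 3 at 9.33 ± 4.73. ELOVL4, whose peaks of 182, 249 and 131 nt ranked 16th of all sites by mean length, had 7, 9 and 7 (7.67 ± 1.15). These SDs overlap, so the order of the first 3 is not settled by these replicates.

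The summits of the other sites lay within 2 to 32 nt of each other over the replicates, with a median of 6 nt over the 10 sites and of 9 nt over all 402. The RDH10 peaks reached 89, 89 and 90 nt toward the 3' end from their summits, so that their 3' edges lay close together, and 39, 19 and 81 nt toward the 5' end. The RBP3 3' UTR peaks were of similar length in all replicates, at 131, 153 and 147 nt. The IMPG2 coding site 1 peaks reached 16 nt toward the 3' end in every replicate. The IMPG2 3' UTR site 3 had the widest spread of summits, 32 nt, on 5 to 17 tags. The mean peak length had a median of 113 nt over the 10 sites, against 73.5 nt over all 402.

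Replicate 2 had the most tags, alone or tied, at all 10 sites, which is the case at 36.1% of the 402 sites. With the replicates scaled by their median ratio, a tally added after the data were seen, this held at 8 of the 10 and at 27.4% of all sites, and replicate 3 was the highest at RDH10 and at the IMPG2 3' UTR site 4. Deposited fold enrichment was highest in replicate 3 at the RBP3 coding sites, ELOVL4, IMPG2 coding site 1 and IMPG2 3' UTR site 4. It was highest in replicate 2 at the remaining sites, and its share over all sites was not counted. The ties in unscaled tags were the IMPG2 coding site 2, with 9 tags in replicates 1 and 2, and the IMPG2 3' UTR site 4, with 7 in replicates 2 and 3. Over all sites replicate 1 had the highest median, with 12, 10 and 7 tags per site in replicates 1, 2 and 3, whereas over the 10 sites the medians were 8.5, 18 and 9.5. The 10 sites belong to only 4 genes and share their libraries, so they are not independent, and the difference was not tested.

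The 4 genes took 1.68% of the listed tags in replicate 1 (95% Wilson interval 1.40 to 2.03), 4.01% in replicate 2 (3.54 to 4.55) and 2.75% in replicate 3 (2.29 to 3.29). Without the RBP3 coding site 3 the shares were 1.59% (1.31 to 1.92), 2.77% (2.38 to 3.22) and 2.11% (1.72 to 2.60). Replicate 2 lay above replicate 1 in both, with intervals that do not overlap and that cover counting error only.

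The IMPG2 3' UTR site 4 had the fewest tags of the 10 by mean. Its peak in replicate 1 was 22 nt long with 3 tags, and all 3 were stacked at the summit by the multiple above. Its score, 10 times the −log10 of the p-value per the file headers, was 203.67, close to 200.02, the lowest in any listed peak. This was also the only 1 of the 30 peaks of the 4 genes whose length exceeded its tags by 19 nt, the smallest difference in any listed peak, which 45 of the 1206 peaks had.

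Of 76 genes on 3 lists for these pathways that were found in the gene table, 6 carried a site, and 2 of these were not among the 4 genes. On a list of 29 genes of the visual cycle and retinoid handling, 2 did, RBP3 and RDH10. On a list of interphotoreceptor matrix genes, 3 of the 12 found in the gene table did: RBP3, IMPG2 and IMPG1, the soluble relative of IMPG2. On a list of 36 genes of fatty acid elongation and lipid supply, 2 did, ELOVL4 and AGPAT3, an acyltransferase that builds membrane phospholipids. The share over all protein-coding genes of the gene table was 1.1%, and since these lists hold the 4 genes themselves, which have sites by their choice, only IMPG1 and AGPAT3 add to it. IMPG1 had a 3' UTR site on chromosome 9 (15776683 to 15776791) with 14, 11 and 7 tags, or 10.7 ± 3.51. AGPAT3 had one on chromosome 1 (147794801 to 147794911) with 8, 10 and 10 tags, or 9.33 ± 1.15. Neither site passed the exact multinomial test for spread over replicates (adjusted p = 0.992 and 0.827).

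RDH10 is known in pigment epithelium and Müller glia, so markers of the cells that dissected retina can hold were checked. Of 12 rod markers 9 carried a site, GNAT1 and SAG among them. None of 10 Müller glia markers, 12 pigment epithelium markers or 10 blood and vascular markers did, which at 1.1% of all protein-coding genes says little for lists of this size. Of these, 1 Müller glia marker and 5 pigment epithelium markers are also on the visual cycle list. The absence of a site does not show that a gene was unbound or unexpressed, and the cell type in which the RDH10 site was bound was not tested.

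The genes nearest to each of the 4 in log2 tags per gene over the 3 replicates, by Euclidean distance among 280 genes, are given as a description. Nearest to RBP3 was HIPK3, a protein kinase, with 55, 96 and 54 tags at a distance of 0.81, followed by PDE6G (1.23) and GNB1 (1.32). Nearest to IMPG2 were ELOVL4 (0.40), MAN2A1 (0.48) and CRLF3 (0.52). Nearest to ELOVL4 were MAN2A1 with 30, 36 and 16 tags (0.18), IMPG2 (0.40) and PDC (0.46). Nearest to RDH10 were MIR182, a miRNA gene, with 18, 16 and 15 tags (0.27), MAP2 (0.29) and TRIP11 (0.38). The 280 named genes, and the ranks among them, thus include miRNA genes as well as mRNAs.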

How the data were processed

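Argonaute HITS-CLIP of bovine retina was given as 2 tables of sites, 1 per strand, each line pairing a gene name and location class with a peak in each of 3 replicates. CASAVA 1.8.1 and GSNAP are named in the submitters' processing notes. The build, the caller of the peaks and the criterion for listing a site were not given in the sources used here. Per the file headers, the deposited tags are a count per peak. The deposited score is 10 times the −log10 of the p-value, and fold enrichment is a ratio to an undescribed background, both per the file headers. The minus-strand table also holds a signal column of the authors, equal to the mean of the tags, which was used as a check only.

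Sites were taken by gene name. The members and gene lists were chosen with earlier results of these data known. Spread over replicates was tested with an exact multinomial test over all sites and tested on simulated data; the test was Benjamini-Hochberg adjusted. Heights are unscaled. Named are the 4 genes, list genes with a site and the 3 nearest genes of each. Gene names were looked up in the RefSeq table of ARS-UCD2.0, for names only; 1 list gene, EYS, was not found there, and 1 rod marker is not reported here. Python 3.11.15 was used with scipy 1.17.1, pandas 2.3.3, matplotlib 3.10.9 and numpy 2.4.6. Tags are few, with a median of 7 to 12 per site, and no molecular identifiers are described, so intervals cover counting error only. Alternatives were other scalings, peak length, summit multiples, merged sites, synonyms, taller sites and each replicate left out.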

Additional observations from a re-analysis of the deposited data

How the results depend on the processing

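Of the 10 sites, 1 passed the exact multinomial test in the main setting and 0 did with expected shares in proportion to peak length or with the summit multiple in place of tags. Over all sites these settings left 1 and 0 calls in place of 20, and 0 and 1 of the 10 sites had an unadjusted p under 0.05. Scaling by the fold enrichment step, chosen after the data were seen, gave 3 calls of 24 over all sites, adding the RBP3 coding site 1 and 3' UTR site (exact multinomial test, adjusted p = 0.0361 and 0.00968). Leaving out each replicate gave from 0 to 1 calls per site and from 0 to 1 per gene, the 0 in both cases without replicate 1; over all sites it gave 6, 8 and 12 calls without replicates 1, 2 and 3. The sites numbered 5 when those at or under the median of all sites were left out. They numbered 7 with sites within 1000 nt merged and 10 with sites within 100 nt merged or synonyms matched. These merging distances are between the edges of sites, not between summits. Mean tags per site of the 10 sites were 15.1 ± 7.02, an SD over the 3 replicates and not over the sites. They were 12.9 without the RBP3 coding site 3 and ran from 11.1 to 17.3 as replicates were left out. List genes with a site numbered 6, and 4 among sites above the median height. No paired comparison between groups was possible because there was a single group. The depth of the libraries is not given. If the fold enrichment step is read as inverse to depth, replicates 2 and 3 had 0.734 and 0.420 of the depth of replicate 1 on the minus strand. That reading was not tested, and which replicate was highest was not tallied under it. With 3 to 72 tags per peak at these sites only large differences between replicates can be seen.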
